A study of Homo sapiens with 17 samples.

Results

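Each of the 15982 baited promoter fragments that had at least 1 listed interaction was compared between naive and primed human pluripotent stem cells. They are among 88413 HindIII fragments that the promoter capture Hi-C (PCHi-C) lists contain. The fragments were chosen only by carrying the bait flag in the deposited lists. The lines of each interaction were joined, pairs listed from both of their baits were counted as 1 interaction, and the contacts of every bait were then counted in each state. Of the baits, 14061 had a contact in naive cells, 13583 had a contact in primed cells and 11662 had contacts in both. A start of an annotated transcript, with the 1000 bp before it, lay in 14933 of them, and 12103 carried a promoter of a protein-coding gene. Here 2355 baits carried promoters of 2 or more coding genes, and these could not be told apart. A gene name on a bait means only that a transcript of that gene starts in the fragment or in the next 1000 bp. Baits without a named promoter were called by the nearest coding gene.

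Both groups were H9 NK2 cells, a line derived from the human embryonic stem cell line H9. The naive cells were kept in t2iL+PKCi medium, which holds the MEK inhibitor PD0325901, the GSK3 inhibitor CHIR99021, LIF and the PKC inhibitor Go6983, on Matrigel. The primed cells were the isogenic line in TeSR-E8 medium on Vitronectin. Both states were grown at low oxygen, and both come from 1 line, so medium, matrix and state cannot be told apart. Each PCHi-C list joins 2 replicates. Accordingly there is no spread between replicates for a contact, no test was made on contact numbers, and intervals on sums and shares cover counting error only.

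Promoters are brought near distal DNA by chromatin folding, and such contacts can join a promoter to an enhancer, to another promoter or to repressed chromatin. PCHi-C enriches the ligation products of a genome-wide contact library for those with a promoter at one end. In pluripotent cells the promoters of many developmental regulators are bound by Polycomb complexes, and stretches bound by Polycomb can meet over long distances. Naive and primed cells are cultured models of the embryo before and after implantation. H3K4me1 is a histone mark found at enhancers and on the flanks of promoters.

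Promoter sequences of 6 baits with very different contact numbers are shown first, because the report returns to them. Each is the 250 bases before the start in RefSeq, GRCh38.p14, read 5′ to 3′ along the gene. In the first 4, the capitals mark CG. EN2 (chr7:155457879-155458128, plus strand) and MNX1 (chr7:157010664-157010913, minus strand) encode homeobox factors whose baits met each other in primed cells. DUSP6 (chr12:89352502-89352751, minus strand) encodes a phosphatase that acts on ERK, and DPPA5 (chr6:73354277-73354526, minus strand) is a marker of naive cells.
EN2: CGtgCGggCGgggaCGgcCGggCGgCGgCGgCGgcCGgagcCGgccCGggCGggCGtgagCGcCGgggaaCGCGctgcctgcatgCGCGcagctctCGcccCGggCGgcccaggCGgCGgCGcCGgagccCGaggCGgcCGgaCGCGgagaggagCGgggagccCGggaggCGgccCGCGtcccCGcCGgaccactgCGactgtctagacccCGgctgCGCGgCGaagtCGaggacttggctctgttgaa
MNX1: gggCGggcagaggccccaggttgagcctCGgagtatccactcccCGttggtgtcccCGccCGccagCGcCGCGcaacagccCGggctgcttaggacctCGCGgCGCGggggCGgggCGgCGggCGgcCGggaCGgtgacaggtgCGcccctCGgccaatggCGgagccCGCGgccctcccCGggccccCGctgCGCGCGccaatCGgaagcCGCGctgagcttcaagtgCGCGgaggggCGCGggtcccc
DUSP6: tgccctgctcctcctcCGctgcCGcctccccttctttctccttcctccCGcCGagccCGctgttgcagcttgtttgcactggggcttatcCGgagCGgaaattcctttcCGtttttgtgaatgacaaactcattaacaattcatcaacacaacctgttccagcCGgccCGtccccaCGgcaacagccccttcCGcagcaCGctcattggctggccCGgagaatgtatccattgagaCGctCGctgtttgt
DPPA5: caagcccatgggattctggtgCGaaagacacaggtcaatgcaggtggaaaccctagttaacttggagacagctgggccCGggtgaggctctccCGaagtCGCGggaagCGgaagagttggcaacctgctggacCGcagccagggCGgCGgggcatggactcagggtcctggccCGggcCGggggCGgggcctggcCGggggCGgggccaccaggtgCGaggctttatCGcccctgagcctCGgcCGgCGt
In the other 2, linker histone promoters whose baits met each other only in the naive list, the capitals mark CCAAT and TATAAA on either strand. H1-1 lies at chr6:26017788-26018037 and H1-5 at chr6:27867589-27867838, both on the minus strand.
H1-1: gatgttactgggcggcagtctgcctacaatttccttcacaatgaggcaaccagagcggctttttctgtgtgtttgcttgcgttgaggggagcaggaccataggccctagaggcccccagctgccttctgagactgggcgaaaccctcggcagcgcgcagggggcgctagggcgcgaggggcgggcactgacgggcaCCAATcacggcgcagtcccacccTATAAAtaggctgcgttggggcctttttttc
H1-5: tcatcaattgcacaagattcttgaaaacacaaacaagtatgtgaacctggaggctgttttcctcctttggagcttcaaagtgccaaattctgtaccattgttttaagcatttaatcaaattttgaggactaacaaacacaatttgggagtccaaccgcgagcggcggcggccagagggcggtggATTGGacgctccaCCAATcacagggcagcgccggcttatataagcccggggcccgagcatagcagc
The EN2 window holds 45 CG and the MNX1 window 36, against a median of 11 over 35116 RefSeq promoters of the same length. For promoters at the baits tested below, the median was 18 whether the baits gained contacts, lost them or did neither. DUSP6 holds 16 CG and DPPA5 holds 19, although their contacts moved in opposite directions.

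A bait was called gained where the primed list held at least 5 more contacts and at least 2 times as many as the naive list, and lost under the mirrored rule. Only the 7685 baits with 5 or more contacts in either list could be called, and 8297 had fewer in both. By this rule 1747 baits gained contacts in primed cells (22.7% of those tested) and 1319 lost contacts (17.2%), while 4619 were called neither way. Taking every bait, 6823 had more contacts in primed cells, 7213 had more in naive cells and 1946 had equal numbers. The primed list as a whole held 1.12 times as many interactions as the naive list. When both lists were cut to equal numbers of their top-scoring interactions, 1428 baits gained and 1576 lost, so which direction was the more frequent depended on that choice. At a CHiCAGO score of at least 10, in place of the authors' 5, 458 baits gained and 211 lost, and gains made up 68.5% of the calls against 57.0% before. Just inside the rule, 255 gained baits and 300 lost baits differed by exactly 5 contacts. Just outside it, 228 baits had 4 more and 248 had 4 fewer.

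**Figure D1:**
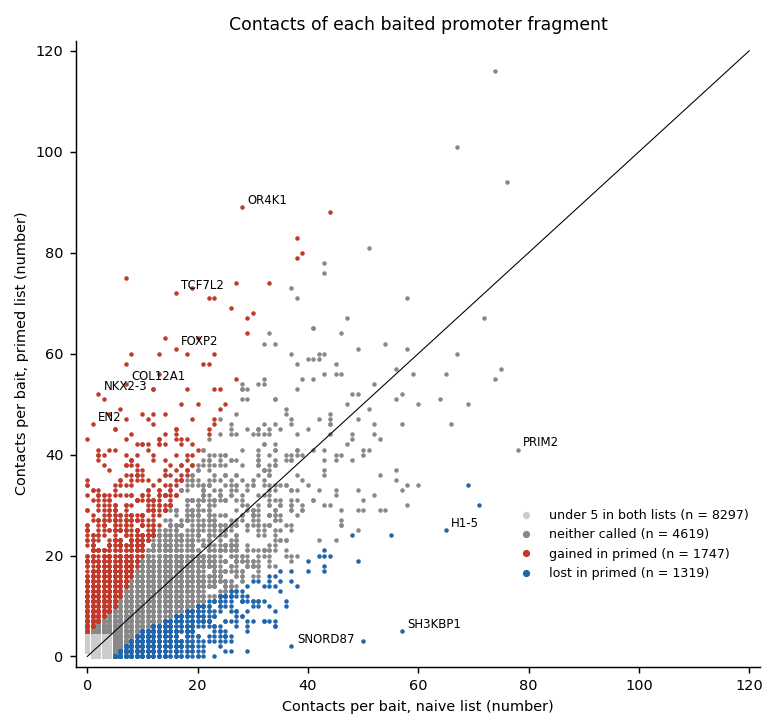
Contacts of each baited fragment in the naive list (x axis, number) and in the primed list (y axis, number), with 1 point per bait and a line at equal numbers. Red points are the 1747 baits gained in primed, blue points the 1319 lost, and gray points those called neither way or with under 5 contacts in both; EN2, with 1 naive and 46 primed contacts, lies near the left edge.

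Gained baits had a median of 3 contacts in naive cells and 12 in primed cells. Lost baits went from a median of 10 to 2, and baits called neither way had a median of 8 in both states. These medians restate the rule. Many of the calls came from baits that were absent from one list: 281 gained baits had no naive contact and 244 lost baits had no primed contact. The gained baits nonetheless kept 5667 contacts in both lists, and their reads are given as a description. Among them, 81.0% had more reads in primed cells, with a median log2 ratio of primed to naive reads of 0.44. At lost baits 43.0% of 3511 shared contacts had more reads in primed cells, with a median of -0.05. At the other baits it was 64.6% of 31559 contacts, with a median of 0.19. These reads are from the libraries whose scores decided the calls, so they describe the gained baits and add no support to them.

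Baits that lie near each other tended to be called alike. Of 3609 pairs of neighbouring tested baits within 100 kb, both members were called in 710, and 642 of these pairs (90.4%) moved in the same direction. Neighbours share stretches of partners and are not independent. Among 550 genes with 2 or more tested baits, 109 had at least 2 called in the same direction and 7 had baits called in opposite directions. A bait of LYSMD4 went from 23 to 6 contacts and another from 14 to 32. The catenin gene CTNNA2 had a bait that went from 3 to 9, a bait with 6 in each state and a bait that went from 10 to 0. At PNP, a purine salvage enzyme, the baits had 12 to 6 and 10 to 24 contacts. DPH3 and OXNAD1 share their baits, which went from 20 to 4 and from 2 to 7. At PTPRN the baits had 11 to 2, 6 to 3 and 6 to 13 contacts.

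The largest increases were spread over genes of different function. An unnamed bait 15.8 kb from TBCA, at chr5:77842181-77853015, had 7 naive and 75 primed contacts, and all 7 naive contacts were kept. Of the primed contacts, 24 fell in a stretch without a bait, chr5:73222847-73480391, at a median of 4.54 Mb, and this stretch had none in naive cells. Its best primed-only partner was the bait of the homeobox gene OTP, with 135 reads and a score of 30.04. This bait therefore increased both near and far from itself.

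OR4K1, an olfactory receptor gene on chromosome 14, had 28 naive and 89 primed contacts, none over 1 Mb. TCF7L2, a transcriptional effector of WNT signalling, had 16 and 72, and all 16 naive contacts were listed in primed cells. PCDHA2, of the clustered protocadherins that give neurons a surface identity, had 19 and 73 contacts. At these baits the increase was an extension of a set that was mostly kept, since OR4K1 kept 27 and PCDHA2 kept 16 of the naive contacts. ADRA1B, an adrenergic receptor gene, had 14 naive and 63 primed contacts with all 14 kept. CCNA1, which encodes cyclin A1, had 13 and 60 with 12 kept, and NELL2, a secreted neural glycoprotein, had 22 and 71 with 14 kept.

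In a further group many of the added partners were over 1 Mb away. COL12A1, a collagen gene, had 7 naive and 54 primed contacts, of which 5 and 49 fell in 1 stretch around CD109 at a median of 1.37 Mb. TOPBP1, a DNA damage response gene, went from 8 to 60 contacts, with 1 naive and 26 primed contacts over 1 Mb away and its best primed-only partners just short of that, at 966 and 968 kb. FOXP2, a forkhead factor with a role in speech, went from 16 to 61, with 42 primed contacts at chr7:115690153-116132418 against 2 in naive cells. PAQR3 had 4 naive and 48 primed contacts, every one over 1 Mb, with 39 at the stretch of PRDM8 and FGF5 and 9 at BMP3. Without contacts over 1 Mb, COL12A1, FOXP2 and PAQR3 would not have been called.

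The pair of baits at NKX2-3, a homeobox factor of the spleen and gut, had almost no naive contacts. One went from 2 to 52 and the other from 3 to 51, with 46 and 47 of the primed contacts over 1 Mb. The stretch around PAX2 held 17 and 22 of them at about 1.2 Mb, and the stretch around TLX1 held 12 and 13. Smaller numbers lay near VAX1 and EMX2 at 17.6 and 18.0 Mb and near HMX3 at 23.6 Mb, and these had 30 reads or fewer per stretch. The partners named here are homeobox or paired-box genes. Baits of FGF8 and KAZALD1, which are neither, were also met over 1 Mb away, from the first and the second bait respectively. NKX2-3 kept 1 contact at the first bait and 0 at the second.

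EN2, a homeobox factor of the midbrain and hindbrain boundary, had 1 naive contact with 12 reads and 46 primed contacts with 2004 reads. In primed cells 13 of its contacts fell on the stretch of MNX1 and UBE3C at a median of 1.56 Mb, with 216 reads, and 12 fell farther out at chr7:157455947-157698371. MNX1, a homeobox factor of motor neurons, went from 2 contacts to 40, and 27 of these lay around EN2. The EN2 and MNX1 baits were themselves listed as a pair in primed cells only, 1546.62 kb apart, with 45 reads and a score of 65.84. SHH, the Hedgehog ligand gene between them, had 8 naive and 16 primed contacts, and 2 of the latter were in the MNX1 stretch. Contacts in this neighbourhood of chromosome 7 were thus listed from 3 separate baits.

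The largest losses included fewer developmental regulators. SH3KBP1, an adaptor protein gene on chromosome X, went from 57 contacts to 5, all 5 of which were among the naive ones. An unnamed bait 74.8 kb from MTM1, also on X, went from 50 to 3. The bait of the small RNA SNORD87 went from 37 to 2, and DENND4C, whose bait lies at an internal start 58.5 kb from the main one, went from 29 to 1. MYL2, a cardiac myosin light chain gene, and KRTAP2-4, a hair keratin-associated protein gene, both went from 34 to 6. In this group the primed contacts that were left were nearly always contacts that naive cells had too.

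Others fell from a high level but kept many contacts. A bait with the small RNA RNU6-842P went from 71 to 30, UBP1 from 69 to 34, an unnamed bait near CDKL4 from 55 to 24 and an unnamed bait 8.95 kb from C14orf28 from 49 to 19. PRIM2, a DNA primase subunit gene with the most contacts of any bait in naive cells, had 78 and 41 and was not called because the primed number was more than the rule allows. Median partner distance at these 5 baits was 201 to 248 kb in naive cells and 211 to 415 kb in primed cells.

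Gene classes were described by the same counts, over 52 classes into which 2533 baits fell, 39 of them with 10 or more tested baits. Classes overlap with genomic clusters, so that the baits of a class can share partners. The homeobox classes together had 193 baits, of which 159 were tested, 98 gained (61.6%; 95% Wilson interval 53.9 to 68.8%) and 5 lost (3.14%). Their interactions went in number from 1416 to 3084, a ratio of 2.18 (2.05 to 2.32) beside 1.12 for all baits. With forkhead, SOX, T-box, GATA, TFAP2, bHLH and ZIC and GLI genes added, 318 developmental baits gave 248 tested, 148 gained (59.7%) and 5 lost (2.02%). Of all other tested baits 21.5% gained and 17.7% lost. These are 7437 of the 7685 tested baits, so their shares had to lie near those over all tested baits. The Wilson intervals for developmental baits, 53.5 to 65.6% gained and 0.86 to 4.63% lost, did not reach these shares. Such intervals treat baits as independent, which neighbouring baits are not, so they can be too narrow. The difference was not tested.

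**Figure D2:**
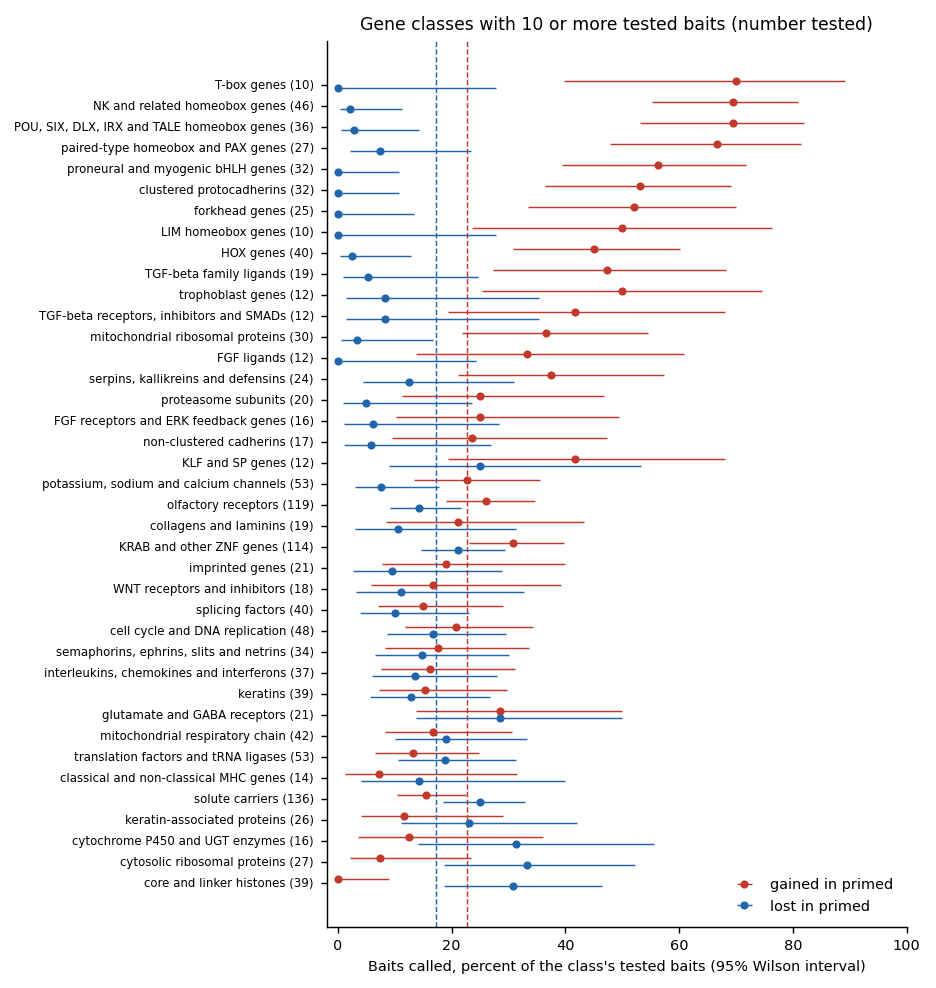
Share of each class's tested baits (x axis, percent, with 95% Wilson interval for counting error) that gained (red) or lost (blue) contacts in primed cells, for the 39 classes with 10 or more tested baits, the number tested in brackets. Dashed lines mark the shares over all 7685 tested baits, 22.7% gained and 17.2% lost; homeobox, T-box, bHLH and protocadherin classes lie to the right in red, while histones and cytosolic ribosomal proteins are the lowest classes drawn.

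NK and related homeobox genes, which pattern the neural tube, heart and gut, had 46 tested baits with 32 gained and 1 lost, and their interactions went from 305 to 902 (ratio 2.96, 2.60 to 3.37). Besides NKX2-3 and EN2, NKX2-1 of the forebrain, thyroid and lung went from 20 to 63 contacts. GBX1, with 8 naive and 2 primed contacts, was the bait that was lost. Paired-type homeobox and PAX genes had 18 gained and 2 lost of 27 tested, with 169 and 537 interactions, the highest ratio among homeobox classes at 3.18. OTP went from 23 to 71, PAX6, a regulator of eye development, from 4 to 37, PAX1 from 2 to 32 and PAX9 from 2 to 31. HESX1, a pituitary factor, had 9 and 4 contacts.

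POU, DLX, IRX, TALE and related homeobox genes had 25 gained and 1 lost of 36 tested. POU3F2, a neural factor, went from 10 to 48 contacts, DLX6 from 7 to 38 and SIX3 from 3 to 30, and CUX2 went the other way from 19 to 8. LIM homeobox genes had 5 gained and none lost of 10, with LHX2 going from 8 to 30 and ISL1 from 8 to 23, while LHX9 held 56 and 51. The HOX genes, which specify position along the body axis, had the lowest ratio of the homeobox classes, 1.44 (1.29 to 1.61), with 18 gained and 1 lost of 40. The bait shared by HOXA2 and HOXA3 went from 5 to 32 contacts and HOXB2 from 0 to 24. HOXB8 had 42 naive and 23 primed contacts and HOXC8 had 25 and 12, so the HOX baits did not move as 1 group.

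Other classes of developmental regulators had no lost bait. Forkhead genes had 13 gained of 25 tested, FOXA1, a pioneer factor of the endoderm, going from 7 to 34. Proneural and myogenic bHLH genes had 18 gained of 32. In that class SIM1 went from 18 to 53, TAL1, a regulator of blood formation, from 2 to 32, HAND2 of the heart and limb from 0 to 34 and PTF1A of the pancreas from 0 to 25. HEY2, a Notch target, went from 56 to 37 and was not called. T-box genes had 7 gained of 10, ZIC and GLI genes 5 of 6, and GATA genes 2 of 2, with GATA3 going from 0 to 10. SOX genes had 3 gained of 9, with SOX21 going from 10 to 28 and SOX17 from 4 to 18.

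The clustered protocadherins had 17 gained and no lost bait of 32 tested, and 470 and 1030 interactions (ratio 2.19). None of these was over 1 Mb, which sets the class apart from the homeobox genes, with 797 primed interactions over 1 Mb. The bait of PCDHB7 and PCDHB8 went from 7 to 58. PCDHB5, in the same cluster, had 31 naive and 32 primed contacts of which 30 were the same, and PCDHGC4 had 11 and 8. TGF-beta family ligands had 9 gained and 1 lost of 19, with BMP5 going from 20 to 50 and BMP4 from 1 to 19, while GDF7 had 44 and 30. Their gained minus lost baits, 8 here, came to 3 at a score of at least 7, 0 at 10 and 3 with equal numbers of interactions. WNT ligands went the other way, with 1 gained and 4 lost of 8 tested and 92 against 55 interactions (ratio 0.60, 0.43 to 0.83). WNT5A had 18 and 6 contacts, WNT4 had 19 and 7, and WNT5B had 5 and 11.

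Histone genes were the class with no gained bait among the 39 classes, 12 lost of 39 tested and 783 against 476 interactions (ratio 0.61, 0.54 to 0.68). The upper limit of the Wilson interval on their share of gains was 8.97%. H1-5 went from 65 to 25 contacts, the bait of H3C11 and H4C13 from 43 to 17 and the bait of H1-1, H3C1 and H4C1 from 25 to 1. The bait of H2AC13 and H2BC13, with 31 and 39 contacts, had the largest increase. Cytosolic ribosomal protein genes had 2 gained and 9 lost of 27 (ratio 0.77, 0.67 to 0.89), RPS26 going from 26 to 12 and RPS6 from 17 to 7. Mitochondrial ribosomal protein genes, by contrast, had 11 gained and 1 lost of 30, although their interactions went only from 299 to 335. This contrast depended on the score threshold: gained minus lost baits, 10 for mitochondrial and -7 for cytosolic ribosomal proteins, was 1 and -3 at a score of at least 7, and 1 and 0 at 10. The difference between the ribosomal classes was not tested.

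Classes near the background included olfactory receptors, with 31 gained and 17 lost of 119, and KRAB and other ZNF genes, with 35 gained and 24 lost of 114. These still held single baits with wide changes, such as the bait of ZNF10 and ZNF891, which went from 5 to 45, and ZNF106, which went from 19 to 0. Solute carriers had 21 gained and 34 lost of 136 (ratio 0.90, 0.84 to 0.97). SLC17A6, a vesicular glutamate transporter of neurons, went from 22 to 43 and SLC4A8, a bicarbonate transporter, from 20 to 3. By kind of gene, 22.0% of 5903 tested coding baits gained and 17.3% lost, and lncRNA baits without a coding gene had a gain in 25.6% of 681.

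Promoter letters followed these classes in part. The 250 bases before the start held CCAAT on either strand in 84.7% of 59 histone promoters and TATAAA on either strand in 67.8%, as printed above for H1-1. Over all 35116 promoters the shares were 32.0% and 10.7%. Gained and lost baits had close shares. CCAAT was found in 37.2% of 972 promoters at gained baits and in 37.2% of 796 at lost baits, TATAAA in 9.67% and 9.05%, and the median number of CG was 18 in each. Along the whole fragment the median GC content was 45.2% at gained, 47.0% at lost and 46.6% at other tested baits.

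Markers of the states behaved unevenly, and no expression was measured in these libraries. DUSP6 had no naive and 35 primed contacts with 1260 reads, the best at chr12:89459427-89459704, 106.737 kb away, with 112 reads. OTX2, a factor of the anterior neural plate used as a primed marker, had 0 and 15, of which 5 were over 1 Mb away. ZIC2 and ZIC5 share a bait with 7 naive and 14 primed contacts. SFRP2, a secreted WNT inhibitor that marks primed cells, went the other way from 19 to 5. So 4 of 5 tested primed-marker baits gained and 1 lost.

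DPPA5 had 5 naive contacts with 448 reads and none in primed cells. Its strongest naive contacts, with 192 and 185 reads, were at chr6:73346815-73349571 and at the fragment of OOEP, an oocyte-expressed neighbour. Of the other naive markers TFAP2C had 22 and 27 contacts with 13 in both, DPPA3 6 and 7, SUSD2 3 and 2, and KLF17 1 and 1. TBX3, which is used as a naive marker and also acts in limb development, had 12 naive and 28 primed contacts with only 3 in both. Of its primed contacts 8 were at LHX5 and 9 at the HOXC genes 60.7 Mb away, the latter with 33 reads in all. LHX5, a LIM homeobox gene, went from 9 to 23, 7 of them at TBX3, and the best contact between these stretches had 64 reads. TBX5 next to TBX3 went from 0 to 14. Of factors common to both states SOX2 had 18 and 27 contacts, SALL4 6 and 1, LIN28A 4 and 3 and POU5F1 1 and 0. No bait of KLF4, KLF5, TFCP2L1, NANOG or PRDM14 was found in the lists.

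The partners listed in both states were counted separately from the number of contacts. Over the 4172 baits with 5 or more contacts in each state, the median share of contacts listed in both was 39.1%, 1092 (26.2%) had over 50% in common and 25 had none. Among baits with 20 or more contacts in each list, GTF2E2, a general transcription factor subunit, had 29 and 26 contacts with only 4 in common, and the median partner distance went from 151 to 490 kb. NKX2-8 had 30 and 34 with 7 in common. TBPL2, an oocyte paralog of the TATA-binding protein, had 45 and 23 with 4 in common, and 16 of the primed contacts were at TMEM260 over 1 Mb away. ELAPOR1, a lost bait, had 44 and 20 with 7 in common. At the other end, EPHB3, an ephrin receptor gene, had 23 and 26 with 22 in common, BIRC2, an inhibitor of apoptosis, had 30 and 35 with 29, and RYR3, a calcium release channel, had 49 and 52 with 45. REST, a repressor of neuronal genes whose bait was lost, went from 12 contacts to 2 with none in common. IL6 had 20 and 20 with 16 in common, and the baits of ACTB had 12 and 11 and 16 and 15. Partners on neighbouring fragments counted as different here, and when partners within 10 kb were taken as the same, the share of listed contacts found in the other state was 66.2% of naive and 62.8% of primed contacts in place of 49.8% and 45.2%.

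Contacts reached farther in primed cells. The ratio of primed to naive contacts, counted for each bait, was 0.79 up to 100 kb, 0.84 from 100 to 250 kb, 1.13 from 250 to 500 kb, 1.85 (1.81 to 1.90) from 500 to 1000 kb and 3.79 from 1 to 5 Mb. Over 5 Mb there were 18 naive and 534 primed contacts. Each bait's own median partner distance had a median over baits of 213 kb in naive and 262 kb in primed cells. Within single baits the shift was small: of the 4172 baits above, 2423 (58.1%) had a larger median distance in primed cells, and the median ratio was 1.01. A distance at least 2 times as long was found at 333 baits in primed cells and at 75 in naive cells. Among these baits the median distance thus changed widely at only some. Baits with fewer than 5 contacts in either state are not covered by this measure, and a median responds little to a few far contacts.

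**Figure D3:**
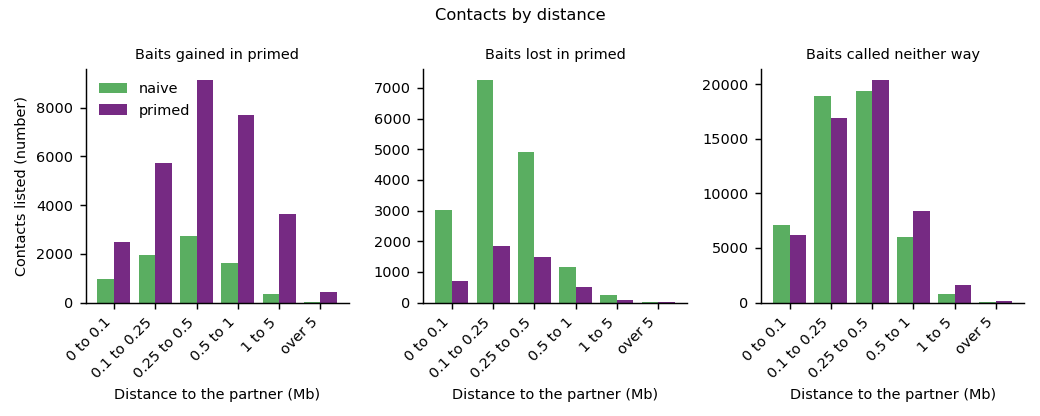
Number of contacts (y axis, from 0, with a scale of its own in each panel) by distance to the partner (x axis, Mb) in naive (green) and primed (purple) cells, for baits gained, lost and called neither way. At gained baits contacts over 5 Mb went from 1 to 411, and at baits called neither way contacts were fewer in primed cells up to 0.25 Mb and more numerous beyond.

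Gained baits had 357 naive and 4029 primed contacts over 1 Mb, which is 4.67% and 13.9% of their contacts. Lost baits had 243 and 96. At baits called neither way, the numbers went from 18973 to 16884 between 100 and 250 kb, from 6031 to 8439 between 500 and 1000 kb and from 807 to 1564 between 1 and 5 Mb. The shift with distance was therefore also seen where the total number was not called. At least 5 contacts over 1 Mb were gained by 340 baits, and these held 64.9% of all primed contact ends over 1 Mb. Of them, 75 (22.1%) were developmental baits, which make up 1.99% of all baits, and 56 carried homeobox genes. At least 5 such contacts were lost by 27 baits, none of them developmental. At 29 baits contacts up to 1 Mb were fewer by 5 or more in primed cells while contacts over 1 Mb were more by 5 or more. An unnamed bait 4.52 kb from DLX2 was of this kind: its contacts went from 19 to 47, with 39 of the primed ones over 1 Mb and 22 of those at the HOXD genes 4.03 Mb away, so that without them it fell by 11.

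Partners of the homeobox baits over 1 Mb were often baits themselves. Of 797 such interactions in primed cells, 201 (25.2%) ended at another bait. Where neither end was a developmental bait, the number was 415 of 4899 (8.47%). A pair of baits could enter the first set through either of its ends, which raises its share, so the 2 shares are not built alike. Over all baits, 653 of 5985 primed interactions over 1 Mb joined 2 baits. Pairs with a developmental bait at both ends and over 1 Mb apart numbered 84 in primed cells, 12.9% of the 653 pairs of baits at that distance. In naive cells there were 0, where 295 pairs of baits of any kind were listed at that distance. Of those 295, 120 joined the first and the last of the histone clusters described below. The 84 pairs joined 97 baits on 19 chromosomes, at a median of 6.23 Mb, and 38 pairs were over 10 Mb apart. Their reads were few, 3 to 64 with a median of 6, and 19 pairs had 10 or more. Among these 19 were PAX2 with NKX2-3, with 41 reads, NKX2-1 with FOXA1, with 39, and NKX2-5 with MSX2, with 37. IRX3 and IRX6 had 32 reads, FOXA2 had 27 with NKX2-2 and 29 with NKX2-4, LHX6 and LHX2 had 17, and DLX1 had 20 with the bait of HOXD10 and HOXD11. The distances in this group ran from just over 1 Mb to 4.02 Mb. The longest pairs had the fewest reads: SOX1 and PDX1 were 84.1 Mb apart with 4 reads, and UNCX and MNX1, at opposite ends of chromosome 7, were 156 Mb apart with 3.

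Histone baits showed the opposite. Most of the 43 histone baits lie on chromosome 6 in 3 clusters, at chr6:25726238-26288615 with 22 baits, at chr6:27131323-27147745 with 3 and at chr6:27802597-27897145 with 10. Pairs of baits between the first and the last numbered 120 in naive and 37 in primed cells (ratio 0.31, 0.21 to 0.45), 36 of them in both, and their reads went from 1083 to 223. Pairs between the first and the middle cluster went from 44 to 32, and between the middle and the last there were 26 in each state. Within the first cluster there were 71 and 51 pairs. So the decrease was not equal between clusters. H1-5 had 43 naive contacts in the first cluster with 471 reads and 7 primed contacts with 51. H1-1 had 13 contacts in the last cluster in naive cells and none in primed cells, and the pair H1-1 and H1-5 was listed in naive cells with 23 reads and a score of 32.79. H4C9, in the middle, had 28 and 20 contacts with 18 in both.

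Losses were most frequent on chromosome X. Of 228 tested baits there 99 lost contacts (43.4%; 37.1 to 49.9%) and 45 gained (19.7%), and interactions went from 2480 to 1896 (ratio 0.76, 0.72 to 0.81). On the autosomes together 16.4% lost and 22.8% gained, with a ratio of 1.13. The share that lost ran from 9.82% on chromosome 5 to 23.5% on chromosome 21, and the share that gained from 15.2% on chromosome 22 to 34.7% on chromosome 13. X therefore stood outside the range of the autosomes for losses and inside it for gains.

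**Figure D4:**
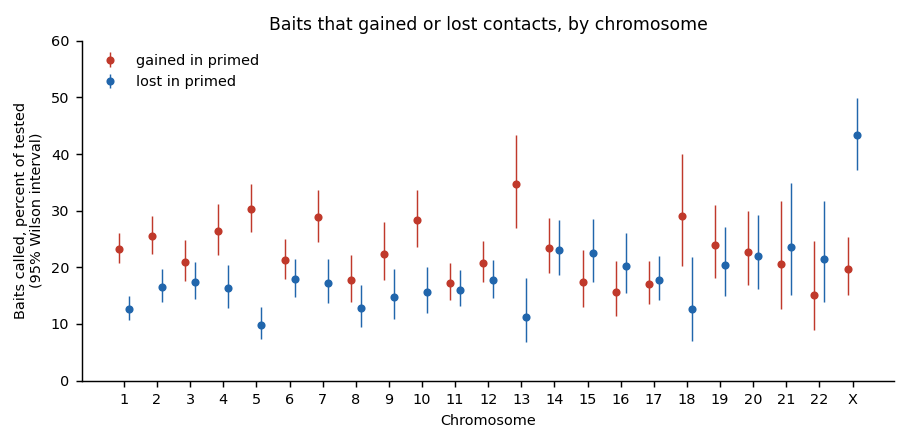
Share of tested baits that gained (red) or lost (blue) contacts in primed cells (y axis, percent, with 95% Wilson interval for counting error) on each chromosome (x axis). The blue point of X, at 43.4%, lies above those of all autosomes, which run from 9.82% to 23.5%.

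Within X the losses were uneven. Counted in stretches of 20 Mb from the short-arm end, 1 bait gained and 23 lost of 38 tested from 40 to 60 Mb, and none gained and 15 lost of 25 from 60 to 80 Mb. From 120 to 140 Mb 16 gained and 11 lost of 36. Besides SH3KBP1, the gene GABRA3, a GABA receptor subunit, had baits that went from 21 to 0 and from 18 to 0, DLG3, a synaptic scaffold gene, went from 15 to 0 and the bait of CDK16 and USP11 from 24 to 6. UTP14A went from 1 to 33, ENOX2 from 10 to 36, FRMPD3 from 5 to 28 and ZDHHC9 from 2 to 24. The contacts of X listed in both states had more reads in primed cells in 63.5%, with a median log2 ratio of 0.21 that lies within the autosomal range of -0.17 to 0.38. In the Hi-C libraries, 1 per state, X took 4.46% of contact ends between chromosomes in naive and 3.65% in primed cells, a ratio of 1.22, beside 1.23 for chromosome 19, 1.36 for 21 and 0.88 for 15. The part of this difference in the result on X was not tested.

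H3K4me1 came from libraries separate from the contact lists, 2 of naive and 3 of primed cells, made by CUT&RUN. For each fragment the mean over its tiles of the log2 RPM, reads scaled to the size of the library, was compared with limma, at a Benjamini-Hochberg adjusted p of 0.05 over 232138 fragments of the genome, of which 23.1% were higher in primed and 21% higher in naive cells. At 11130 tested baits the split was unlike that, with 982 higher in primed (8.82%) and 2440 higher in naive cells (21.9%). These counts depended on the libraries used, and were 557 and 1311 without primed replicate 3. Leaving out a naive library leaves 1 in that group. The fewer calls made then do not show that the counts rested on the library left out. The range over such fits is given in the closing section. Gained baits were higher in primed cells in 161 of 1182 tested (13.6%) and higher in naive cells in 210 (17.8%), with a median difference of -0.09 on the log2 scale. Lost baits were higher in primed cells in 40 of 971 (4.12%) and higher in naive cells in 298 (30.7%), with a median of -0.56. Baits called neither way lay between these, at 8.43% and 20.3% of 3321 and a median of -0.26.

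The same was seen library by library. The median level of gained baits minus that of lost baits was -0.37 and -0.42 log2 RPM in the naive libraries and 0.18, 0.02 and 0.09 in the primed libraries. The naive and primed values did not overlap, though the primed values were near 0. At partners without a bait, 25.6% of 6058 tested fragments contacted by gained baits in primed cells only were higher in primed cells and 19.4% were higher in naive cells, with a median of 0.24. Fragments contacted by lost baits in naive cells only were higher in naive cells in 37.7% of 4745 and higher in primed cells in 8.68%, with a median of -0.70. For the gained baits these shares lie near those over all tested fragments, 23.1% and 21% with a median of 0.10. Fragments that gained baits contacted in naive cells only had 18.1% and 19.3%, with a median of -0.02. Those contacted in both states had 21.7% and 19.2%, with a median of 0.12. At baits called neither way, fragments contacted in primed cells only had 18.1% and 24.6%, with a median of -0.12. The differences between these groups were not tested. Partners of lost baits were more often higher in naive than in primed cells in whichever state they were contacted. Among those contacted in primed cells only, 32.1% were higher in naive and 12.4% in primed cells, with a median of -0.59. Among those contacted in both, the shares were 31.8% and 8.41%, with a median of -0.57. The lean to naive cells was thus present in every contact group and somewhat larger for contacts in naive cells only. The difference between these groups was not tested.

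**Figure D5:**
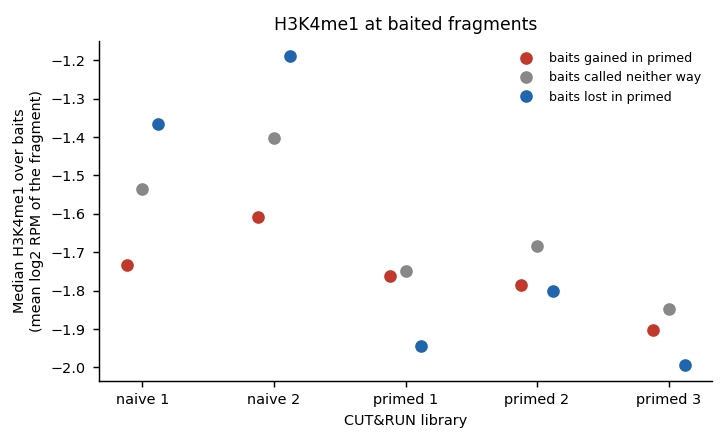
Median H3K4me1 (y axis, mean log2 RPM of the fragment) over baits gained (red), lost (blue) and called neither way (gray) in each of the 5 CUT&RUN libraries (x axis). Lost baits lie above gained baits in both naive libraries by 0.37 and 0.42 and at or below them in the 3 primed libraries.

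Developmental baits had more calls in the primed direction, 63 of 299 tested (21.1%) against 19 higher in naive cells (6.35%), by limma. Not every member class leaned so. HOX genes had 2 higher in primed and 6 higher in naive cells of 40, and forkhead genes 5 and 6 of 32. TFAP2 genes had none either way, and the other developmental classes had more higher in primed cells. On X 9 of 341 were higher in primed (2.64%) and 146 higher in naive cells (42.8%), with a median of -0.96 against -0.30 on the autosomes. Histone baits had none higher in primed and 12 of 39 (30.8%) higher in naive cells, and cytosolic ribosomal protein baits had 4 (5.56%) and 17 (23.6%) of 72, near the shares of 8.82% and 21.9% over all tested baits.

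Single baits followed the lean or went against it. TBX15, a T-box gene of the skeleton, stood at -3.08 and -2.49 log2 RPM in the naive libraries and at 1.01, 0.57 and 0.60 in the primed ones. Its difference was 3.51 (SE 0.37, limma adjusted p = 0.00088), and its contacts went from 4 to 9. SIX6, an eye field factor, had -1.72 and -1.55 in naive and 1.54, 0.57 and 0.86 in primed libraries, a difference of 2.62 (SE 0.40, limma adjusted p = 0.0017), with contacts from 2 to 13. In both genes the mark and the contacts were higher in primed cells. Both were picked among called baits past the limma threshold whose libraries did not overlap between the states. Their small p-values and lack of overlap therefore restate that choice and add no support. TBX5 was higher in primed cells by 1.89 (SE 0.34, limma adjusted p = 0.0031), beside 0 and 14 contacts.

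DPPA5 had 0.45 and 0.35 in the naive libraries and -2.65, -1.91 and -2.57 in the primed ones, a difference of -2.78 (SE 0.36, limma adjusted p = 0.0011). ZNF585A, a KRAB zinc finger gene, had a difference of -3.82 (SE 0.49, limma adjusted p = 0.0011) with contacts from 6 to 1. RNU7-69P, a small RNA bait on X, had one of -3.66 (SE 0.38, limma adjusted p = 0.00088) with contacts from 20 to 0. These moved down in both measures. For ZNF585A the values of primed replicates 1 and 2, -3.30 and -3.13, were the lowest that those libraries hold. The same was true of RNU7-69P in primed replicate 2. The size of these differences therefore depends on the depth of the libraries. ARHGEF38 moved in opposite directions: its mark was 0.99 and 0.78 in naive and -2.86, -2.89 and -2.98 in primed libraries, a difference of -3.79 (SE 0.32, limma adjusted p = 0.00088), while its contacts went from 0 to 8. A bait at an internal start of SPTBN1, a spectrin gene, likewise had a difference of -3.91 (SE 0.39, limma adjusted p = 0.00088) with contacts from 15 to 33. A bait of GABRA3 on X had the reverse, 1.70 (limma adjusted p = 0.016) with contacts from 21 to 0.

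Many wide changes in contacts came without a called change in the mark at the bait. Some of the widest, as at OR4K1, PCDHA2 and SH3KBP1, were at baits whose mark was too low to be tested. PRIM2, with 78 and 41 contacts, did have a called difference, of -1.87 (SE 0.39, limma adjusted p = 0.0055). EN2 differed by 0.57 (SE 0.35, limma adjusted p = 0.21), DUSP6 by 0.57 (SE 0.36, limma adjusted p = 0.21), OTX2 by 0.03 (SE 0.35, limma adjusted p = 0.95) and MNX1 by 0.07 (SE 0.36, limma adjusted p = 0.88). H1-1, with contacts from 25 to 1, differed by -0.09 (SE 0.35, limma adjusted p = 0.85), and REST by -0.05 (SE 0.39, limma adjusted p = 0.92). A p over the threshold does not show that the mark was equal in the 2 states, and these errors of about 0.35 on the log2 scale leave room for moderate differences.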

How the data were processed

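PCHi-C was made from 2 naive and 2 primed replicates. The authors mapped and filtered the reads with HiCUP on GRCh38, scaled and combined the replicates of each state within CHiCAGO, and deposited 1 list per state, in which each pair of HindIII fragments scored 5 or more in CHiCAGO. The deposited values per pair are the score and a number of reads after scaling, which was taken as a score and not as a raw count. The lists hold 79330 naive and 88985 primed interactions, with 2868657 and 3069060 reads and a median of 22 reads in each. The depth of the libraries is not in the lists. CHiCAGO scores were computed per state against a background that falls with distance, so that a pair absent from a list was under the threshold and not shown to be absent. For the pairs listed from both baits, the highest score was kept. Fragments were named by GENCODE release 44 (transcript start and 1000 bp upstream), and 100% of them matched the HindIII digest.

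H3K4me1 CUT&RUN was deposited as log2 RPM per 500 bp tile, which the authors made from reads mapped with Bowtie2 to GRCh38 and quantified in SeqMonk. If the lowest value of a library stands for 0.9 reads, the libraries hold 6700000 to 26600000 reads. Fragment means above -2 in at least 2 libraries were tested with limma 3.58.1 (trend, Benjamini-Hochberg), after the code was checked on simulated data. The study's methods call the CUT&RUN libraries biological replicates. Whether they came from separate cultures is not given in the sources used here, and p-values measure the spread between these libraries. Hi-C was deposited as raw counts of contacts per pair of 100 kb bins by the authors, with 1 library per state, and was used only for shares between chromosomes.

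Groups came from the sample titles. The named baits are the 12 with the largest increase and the 12 with the largest decrease at least 500 kb apart, 5 in each direction for contacts over 1 Mb, 5 each with the smallest and largest share in common among baits with at least 20 contacts in each state, 5 in each direction by H3K4me1 among called baits, the genes that the study names for such contacts, state markers, and the extremes of each class. The opposite calls within a gene, the pairs of developmental baits, the histone clusters, the 20 Mb stretches of X and the baits named there, and the promoter letters were chosen after their values were seen. The baits named by H3K4me1 were those past the limma threshold with the largest differences whose libraries did not overlap between the states. The members and all gene lists were chosen with earlier results of these data known. Intervals on shares are 95% Wilson intervals, and those on ratios treat both sums as Poisson counts. Transcription factor ChIP-seq of naive cells was not used here. Results for some genes are not reported here. Alternatives are given in the closing section. Computation used Python 3.11.15 and pandas 2.3.3.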

Additional observations from a re-analysis of the deposited data

How the results depend on the processing

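The calls on baits depended on the score threshold. Gained baits numbered 979 at a score of at least 7 and 458 at 10, against 1747, and lost baits 616 and 211 against 1319. With at least 10 reads per interaction there were 1598 and 1252, with naive counts scaled to the primed total 1382 and 1447, without contacts over 1 Mb 1493 and 1339, and with partners without a bait only 1647 and 1080. At a fold of at least 1.5 there were 2097 and 1594 calls, and at 3 there were 1222 and 895. In none of these settings were more than 4 baits called in the direction opposite to the first call. The share of contacts found in the other state moved with the distance allowed between partners, from 49.8% to 66.2% of naive and from 45.2% to 62.8% of primed contacts within 10 kb. The difference of gained minus lost baits also went from 7 to 1 for T-box genes and from -13 to 0 for solute carriers at score 10. Classes with more gained than lost baits numbered 30 of 39, and 23 to 29 under the score, equal-number and scaled settings. The difference of gained minus lost baits changed sign for MHC genes (2 at score 7), KRAB and other ZNF genes (-1 at score 7), interleukins and chemokines (-3 at score 7, -2 at score 10, -4 with equal numbers, -1 when scaled), translation factors (3 at score 10), cytochrome P450 and UGT enzymes (1 at score 10), KLF and SP genes (-1 with equal numbers), keratins (-2 with equal numbers and when scaled), cell cycle genes (-3 with both) and splicing factors (-1 when scaled). The bait near DLX2 fell by 11 contacts without those over 1 Mb, and SPTBN1 fell by 2 at a score of at least 10. Pairs of developmental baits over 1 Mb in the primed list numbered 64, 51, 19 and 80 at score 7, at score 10, with 10 or more reads and with equal numbers, against 84. These settings can only remove interactions, so the 0 of the naive list could not change. For the settings that add or remove interactions by a threshold, fewer listed pairs is part of their construction, and no other cause was tested.

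For H3K4me1 at the baits, a replicate block on the library numbers left 480 baits higher in primed and 1108 higher in naive cells, against 982 and 2440. The numbers share no stated batch, and with 2 pairs the correlation of the deviations of same-numbered libraries was 0.03, so they do not pair the samples. Leaving out 1 library at a time gave 205 to 1039 and 755 to 2725 calls. The lowest numbers, 205 and 755, came without naive replicate 1, which leaves 1 naive library whose spread is assumed to be that of the primed ones. No replicate could be left out of the contact lists, which are combined. Depth limits the reading of pairs over 5 Mb, many of which rest on fewer than 10 reads.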
